A study of Mus musculus with 15 samples.

Results

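Secondary Myc-driven mouse medulloblastomas were compared with the GFP-negative fraction of the young mouse cerebellum across all genes on the array. The comparison used 6 of the 15 arrays of the series, 3 per group, chosen by the source label of each sample. Myc secondary tumours grew after cultured sphere cells, taken from Myc primary tumours, were transplanted into recipient mice at the site of origin. The primary tumours in turn had come from cerebellar cells of Cdkn2c-/-, Trp53-/-, Atoh1-GFP mice that were infected with Myc and placed in the cerebral cortex of nude mice, a host without mature T cells that keeps its macrophages. GFP-negative cells were sorted by fluorescence from cerebella of Cdkn2c-/-, Trp53-/-, Atoh1-GFP mice at postnatal day 6. Both groups thus carry the Cdkn2c and Trp53 deletions and the reporter, and differ in Myc infection, passage through culture and transplantation. They also differ in age and site. The source label of the sorted samples reads as a spontaneous tumour, whereas the design text describes sorted cerebellar cells, and it is the design text that was used here. Whether the 3 samples of a group are different animals or different sphere lines is not in the labels, so all p-values refer to the spread among samples within groups, which may be technical. Unless a fit on only 6 arrays is named, that spread was estimated over all 5 groups of the series, including those outside this comparison.

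Myc is a transcription factor that pairs with Max, binds E-box sequences such as CACGTG and drives genes for ribosome production, nucleotide synthesis and cell growth. In the cerebellum it is known as an amplified oncogene of the most aggressive medulloblastomas. Atoh1 marks the granule neuron progenitors of the external granular layer, so the Atoh1-GFP reporter splits the early postnatal cerebellum into progenitors, which are GFP-positive, and a GFP-negative remainder. Among other cells, that remainder holds Bergmann glia and astrocytes, oligodendrocyte progenitors, GABAergic interneurons and their progenitors, Purkinje cells, microglia, vessels and meninges. The comparison therefore sets a tumour against a mixture of normal cell types.

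The samples were bulk RNA, in which fewer cells of a type and less RNA per cell cannot be told apart. Values are the authors' log2 signals after robust multi-array averaging, a scale on which 1 unit is a 2-fold change. A group mean under 4.77, the level that 95 percent of the 23 nonspecific control probe sets stayed below, could not be told from background, and differences against such a mean are limited by the floor of the array. A gene was said to rise or fall in the tumours when its adjusted p in limma's fit was below 0.05. Across genes, arrays correlated at 0.962 to 0.994 within the Myc secondary group, at 0.963 to 0.983 within the GFP-negative group and at 0.860 to 0.883 between them. Myc secondary 1 and GFP-negative 3 stood apart from the other arrays of their groups, GFP-negative 3 with a narrower interquartile range of gene signals (3.73 against 4.21 to 4.58 on the other 14 arrays). The sample titles number GFP-negative 3 directly before the GFP-positive and then the Myc secondary samples, apart from the other GFP-negative samples. What these numbers record is not stated.

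The labels of both groups were borne out by their markers in part. Atoh1 was below background in the GFP-negative cells, at 3.75, 3.96 and 4.55, and markers of glia and microglia were high. In the Myc secondary tumours Atoh1 read 3.79, 5.64 and 6.52, against 8.92 ± 0.39 in GFP-positive cells, and the values overlapped those of the GFP-negative cells (difference 1.23 ± 0.52, adjusted p = 0.0832). Without Myc secondary 1 the difference was 1.99 and passed the test (adjusted p = 0.000556), as it did with array weights (1.94) and with arrays centred on their median gene (1.76), and without Myc secondary 3 it was 0.63. Neurod1, a transcription factor of the granule lineage, read 12.71, 11.68 and 11.68 in Myc secondary tumours and 7.68, 9.45 and 9.59 in GFP-negative cells, with no overlap (3.11 ± 0.42, SE, adjusted p = 7.82e-05). Neurod1 was thus above background in the GFP-negative cells as well. The granule lists as wholes did not follow it: of 9 progenitor genes none rose and 5 fell, and of 16 neuron genes 3 rose and 2 fell. Over all genes, 19.4% rose and 18% fell. This single gene therefore does not settle a granule identity of the tumours. Cdkn2c, deleted in both groups, was below background in both, at 4.07 ± 0.06 in Myc secondary tumours and 3.47 ± 0.16 in GFP-negative cells (SD, n = 3 each). Its difference of 0.60 passed the test although neither level could be told from background. For Trp53 no probe set was unique in the annotation, so its deletion was not checked.

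Of 17097 genes, 6389 changed (37.4%). The tumours were higher for 3309 genes (19.4%) and lower for 3080 (18%), and with a change of at least 2-fold these were 1815 (10.6%) and 2234 (13.1%). Counts of list members below are to be read beside the shares over all genes, 19.4% higher and 18% lower. Falls were larger than rises: the median log2 difference was 1.08 among the genes that rose and -1.51 among those that fell, beside 0.05 over all genes. The split depends on the scaling. The median level over all genes differed by -0.54 between Myc secondary tumours and GFP-negative cells, and centring each array on its median gene turned the split into 8427 higher and 1919 lower. Centring removed this gap by raising every difference by the same amount, also for the 6260 genes below background in both groups. List splits with centred arrays given below carry this shift. Cyclic loess scaling moved the split the other way, to 2879 higher and 3766 lower. For 7363 genes all values of one group lay above all values of the other (43.1%). Among genes that rose, 498 had a GFP-negative mean below background, and among genes that fell, 1251 had a tumour mean below background. For 495 of the genes that changed, both group means were below background.

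**Figure D1:**
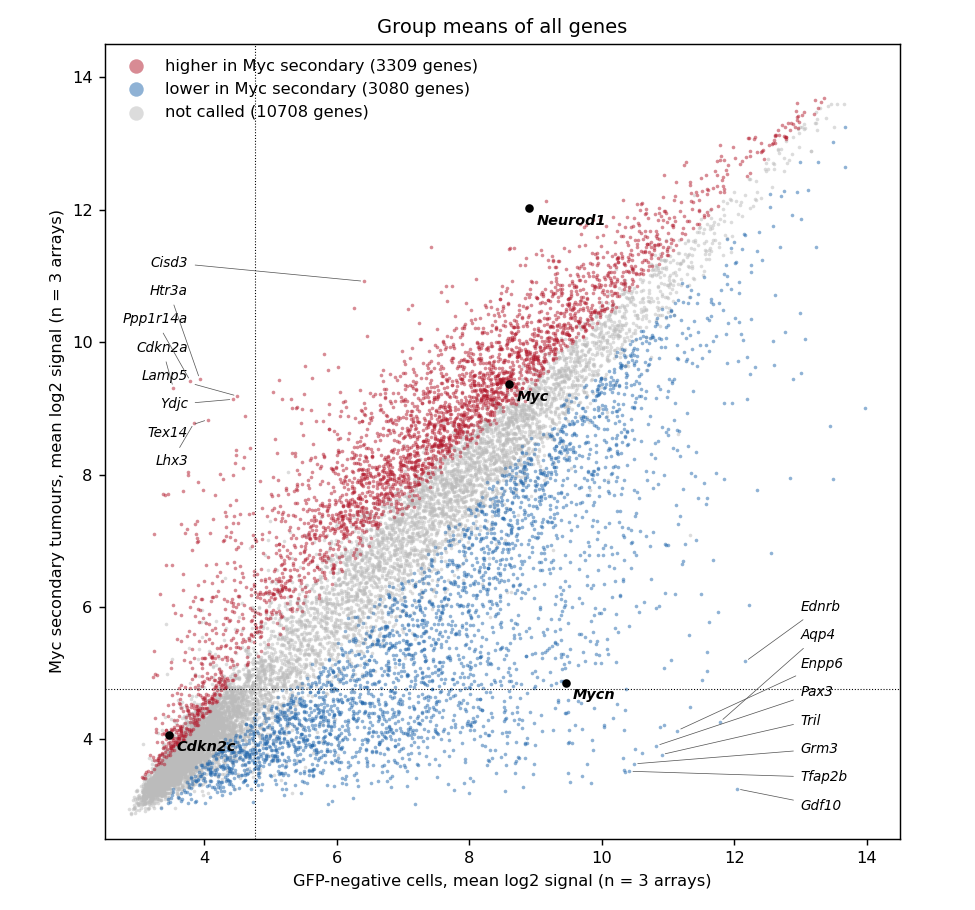
Mean log2 signal of each of 17097 genes in Myc secondary tumours (vertical axis) and GFP-negative cells (horizontal axis), 3 arrays per group; red genes rose in the tumours, blue genes fell and grey genes were not called. Dotted lines mark the background level of 4.77; the named rises lie at the upper left, the named falls at the lower right, and the point for Mycn is its brightest probe set over all arrays.

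The nucleolar genes that make ribosomes, the best known targets of Myc, rose without exception among those measured. All 39 measured members of this list rose, beside 19.4% of all genes, with a median difference of 2.09. For all 39, every tumour value lay above every GFP-negative value, as it did for 22.6% of all genes. Of the 35 members with a RefSeq promoter window (250 bases before to 50 after the start of the gene, GRCm38.p6), 6 held the E-box CACGTG, a palindrome that reads alike on both strands. They are shown here because they carry, next to the start of genes that rose, the letters that Myc and Max bind. Each stretch runs 5′ to 3′ on the strand of the gene, with the E-box in capitals.
Pno1: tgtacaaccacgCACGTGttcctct
Nop2: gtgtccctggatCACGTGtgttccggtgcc
Nle1: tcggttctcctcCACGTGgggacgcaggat
Pes1: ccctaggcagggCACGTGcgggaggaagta
Wdr43: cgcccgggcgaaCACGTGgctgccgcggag
Ltv1: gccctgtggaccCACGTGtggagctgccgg

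The stretches lie at chr11:17211540-17211564 (minus strand) for Pno1, chr6:125131811-125131840 (plus) for Nop2 and chr11:82908355-82908384 (minus) for Nle1. Those of Pes1, Wdr43 and Ltv1 lie at chr11:3963965-3963994 (plus), chr17:71616220-71616249 (plus) and chr10:13193092-13193121 (minus). Of genes with at least 1 window, the hexamer stood in a window of 13.7% of those that rose (372 of 2715), of 10% of those that fell (246 of 2457) and of 9.14% of those not called (771 of 8433). Its share was 10.2% over all genes measured here that have a window (1389 of 13605) and 8.09% over all 27025 genes with a RefSeq window. These are descriptions of letters in a window, and no binding was measured here.

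These 6 genes act at different steps of ribosome assembly. Nop2, a methyltransferase of the large subunit rRNA, averaged 9.47 in Myc secondary tumours against 6.88 in GFP-negative cells, and Nle1, an assembly factor of the large subunit, 7.43 against 5.11. Pes1, which works with Bop1 and Wdr12 in large subunit maturation, averaged 10.65 against 8.46. Wdr43 of the small subunit processome averaged 10.85 against 8.49, and the small subunit factors Pno1 and Ltv1 10.55 against 8.93 and 9.94 against 8.47.

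Polr1a, the catalytic subunit of RNA polymerase I, read 9.16, 9.34 and 9.17 in Myc secondary tumours and 6.87, 6.90 and 6.42 in GFP-negative cells (2.49 ± 0.17, adjusted p = 5.51e-07). Nolc1, a nucleolar phosphoprotein, read 11.21, 11.27 and 11.02 against 8.61, 8.73 and 8.98 (2.40 ± 0.15, adjusted p = 2.84e-07). The spread within either group was far smaller than the gap for both genes. The small nucleolar ribonucleoprotein genes Nop56 and Nhp2 rose by 1.98 and 2.01, Ebna1bp2 by 1.89 and Nop14 by 2.27. Outside the rule for named genes and chosen after their values were seen, Nop16 had the largest rise of the list (3.12) and Ubtf, a polymerase I factor, the smallest (0.50).

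Of 21 measured genes of nucleotide and one-carbon synthesis, 19 rose and none fell (median 1.55). Shmt1, the cytosolic serine hydroxymethyltransferase, read 9.77, 10.38 and 10.14 in Myc secondary tumours and 6.94, 6.90 and 5.54 in GFP-negative cells (3.64 ± 0.32, adjusted p = 2.77e-06). The groups did not overlap, and GFP-negative 3 gave the lowest value. Ppat, which starts purine synthesis, rose by 2.40 ± 0.16, the mitochondrial Shmt2 by 2.51 ± 0.22, and Ctps, Pfas and Adsl by 1.59, 1.79 and 1.79. Of 25 measured aminoacyl-tRNA synthetases and initiation factors, 21 rose and none fell (median 1.0). Kars and Gars, which charge tRNA with lysine and glycine, rose by 1.99 and 1.67. Eif4ebp1, an inhibitor of the cap-binding factor Eif4e, rose most of that list, by 3.42 ± 0.31 (10.56 ± 0.19 against 7.14 ± 0.60).

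Of 7 measured polyamine genes, 3 rose (42.9%, beside 19.4% of all genes) and 2 fell (28.6%, beside 18%). Srm, spermidine synthase, read 12.10, 12.18 and 12.11 in Myc secondary tumours and 9.49, 9.47 and 8.50 in GFP-negative cells (2.98 ± 0.21, adjusted p = 5.51e-07). Odc1, the rate-limiting decarboxylase of the pathway, rose by 2.21 ± 0.20 and Sms, spermine synthase, by 1.64 ± 0.13. The catabolic enzymes Smox and Sat1 fell by 2.06 ± 0.18 and 1.25, while Oaz2, an antizyme that restrains Odc1, averaged 5.78 against 6.33 and did not pass the test (adjusted p = 0.0519). Azin1, which relieves Odc1 of antizyme and was named after its value was seen, averaged 9.84 against 10.32 and did not pass either. In mitochondria, 14 of 16 ribosomal proteins, chaperones and transcription factors rose and none fell (median 1.22), among them the prohibitins Phb (1.99 ± 0.15) and Phb2 (1.34), Mrps18b (1.83) and Mrpl12 (1.66).

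**Figure D2:**
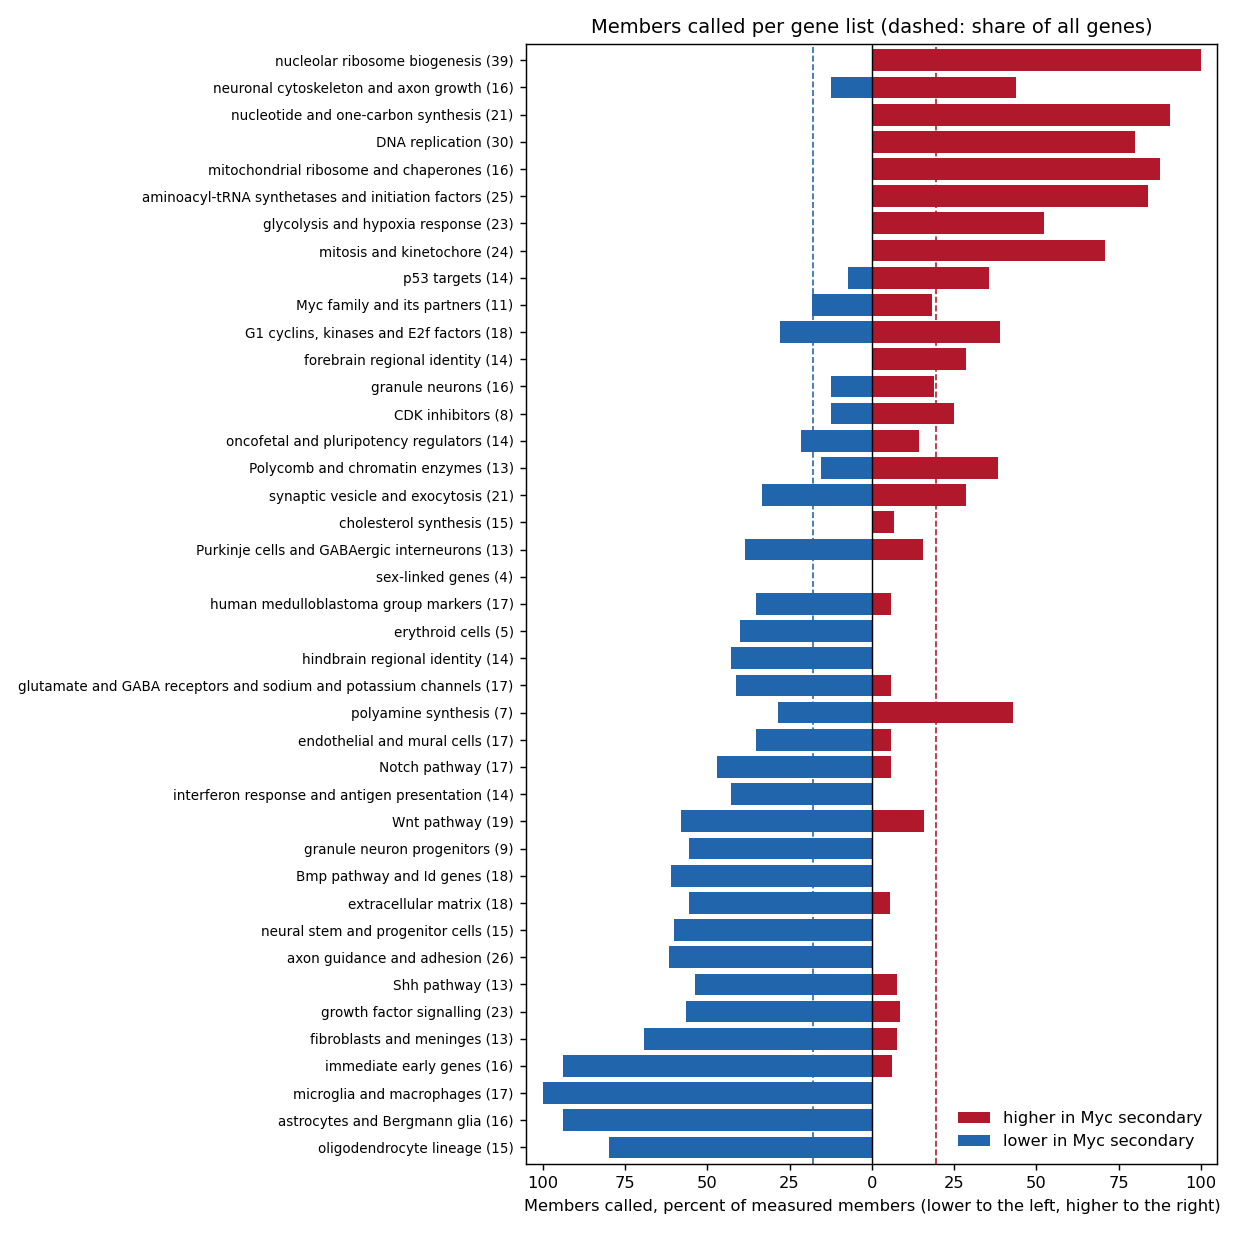
Share of the measured members of each of 41 gene lists that rose (red, to the right) or fell (blue, to the left) in Myc secondary tumours against GFP-negative cells, in percent, with the number measured in brackets and lists ordered by their median difference. Dashed lines mark the shares over all genes (19.4% higher, 18% lower); the nucleolar list reaches 100% higher and the microglial list 100% lower.

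The Myc genes themselves gave a mixed reading. Myc read 10.10, 9.12 and 8.88 in Myc secondary tumours and 8.70, 8.55 and 8.56 in GFP-negative cells. All tumour values lay above all GFP-negative ones, yet the difference of 0.76 ± 0.74 did not pass the test (adjusted p = 0.471). The spread of the fit is shared by all 5 groups and includes the Myc primary tumours, where Myc read 8.41, 5.21 and 9.0. The annotation lists 1 probe set for Myc, and whether it reads the introduced Myc was not tested.

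Mycn, a relative of Myc used by granule neuron progenitors, was lower in the tumours on 2 probe sets and far higher on another. On the probe set with the highest mean over all arrays it read 4.68, 4.73 and 5.16 in Myc secondary tumours and 9.66, 9.30 and 9.41 in GFP-negative cells (-4.60 ± 0.20, adjusted p = 1.78e-08). A second one averaged 5.33 against 7.08 (-1.75 ± 0.21, adjusted p = 2.94e-05 over all probe sets). The other read 13.26, 12.97 and 12.93 in Myc secondary tumours and 4.05, 3.95 and 3.94 in GFP-negative cells (9.07 ± 0.15, adjusted p = 1.23e-12 over all probe sets). That probe set read 13.40, 12.98 and 13.05 in Myc primary tumours, 4.01 to 4.30 in GFP-positive cells and 4.11 to 4.39 in Shh tumours. It was therefore bright in all 6 tumours of the Myc model and below background on the other 9 arrays, and no statement on the direction of Mycn as a gene is made here. What this probe set hybridises to in these tumours was not tested. Of the other members, Mycl, the third relative, fell on 1 of its 3 probe sets (-1.36 ± 0.36, adjusted p = 0.00883; 7.82, 6.25 and 7.0 against 8.98, 8.50 and 7.66, which overlap). Mlx and Mxi1, partners of the Myc network, rose by 0.90 and 0.71, and the differences of Mga, Mlxip, Mnt, Mxd1, Mxd3 and Mxd4, between -0.44 and 0.64, did not pass the test. The list of 11 gave 2 rises and 2 falls (18.2% each), close to the shares over all genes (19.4% and 18%). It gave 5 rises and 2 falls with centred arrays and 2 rises and 5 falls with array weights.

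Cdkn2a, the locus of the tumour suppressors Ink4a and Arf at chr4:89274473-89294619, gave the largest rise among the named genes. It read 9.18, 9.83 and 8.92 in Myc secondary tumours and 3.19, 3.41 and 3.99 in GFP-negative cells (5.78 ± 0.74, adjusted p = 5.36e-05). All GFP-negative values were below background, and the groups lay far apart. Myc primary tumours read 7.36, 4.34 and 7.92, between these levels, and their difference from the secondary tumours did not pass the test (2.77 ± 0.74, adjusted p = 0.124). The other inhibitors of cyclin-dependent kinases showed no such shift. Cdkn1a, a p53 target, averaged 7.34 against 7.33, Cdkn1b 10.06 against 9.99, Cdkn2b 4.81 against 4.63 and Cdkn2d 7.42 against 8.05, none past the test. Cdkn1c, an imprinted inhibitor, read 4.85, 9.40 and 10.03 in Myc secondary tumours and 8.90, 8.86 and 8.66 in GFP-negative cells. Its difference of -0.71 (adjusted p = 0.609) became 0.91 without Myc secondary 1. Cdkn3, a phosphatase of Cdk1 and Cdk2, fell by 1.08, close to the threshold (adjusted p = 0.0488) and with overlapping values. The list of 8 thus held 1 fall (12.5%, beside 18% of all genes) and 2 rises (25%, beside 19.4%). The second rise was Cdkn2c, deleted and below background in both groups. With centred arrays the list held 4 rises and no fall.

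Genes of DNA replication rose in 24 of 30 cases and fell in none (median 1.25). Cdt1, which licenses replication origins, averaged 11.86 ± 0.12 in Myc secondary tumours and 9.97 ± 0.10 in GFP-negative cells (1.89 ± 0.13, adjusted p = 4.48e-07). Its inhibitor Gmnn rose by 1.61, and Rfc5, Mcm10, Orc6 and Rpa2, of the clamp loader, the helicase, the origin complex and the single-strand binder, by 1.77, 1.70, 1.60 and 1.60. Pcna and Lig1, named after their values were seen, did not pass (12.61 against 12.51 and 8.64 against 8.96).

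Mitotic genes rose in 17 of 24 cases and fell in none (median 0.94). Kif20a, a kinesin of the midzone, rose by 2.26 ± 0.30, Aurka by 1.78 ± 0.25 and Cdk1 by 1.15 ± 0.15. Mki67, the common proliferation marker, averaged 10.88 ± 0.26 in Myc secondary tumours and 11.03 ± 0.14 in GFP-negative cells, with overlapping values (-0.16 ± 0.21, adjusted p = 0.618). It was also named after its values were seen. Most members of the cell cycle lists therefore rose, and this marker did not pass the test.

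At the G1 stage members moved both ways: of 18 measured, 7 rose (38.9%, beside 19.4% of all genes) and 5 fell (27.8%, beside 18%). Ccne1 and Ccne2, the cyclins that start S phase, rose by 1.80 ± 0.22 and 2.44 ± 0.49, and E2f1, an S phase transcription factor, by 1.37 ± 0.13. Cdk6, a kinase partner of the D cyclins, fell by 3.02 ± 0.37 (5.80, 4.05 and 5.12 against 8.26, 8.13 and 7.62), and the retinoblastoma genes Rb1 and Rbl1 fell by 1.74 ± 0.26 and 1.5. Among 14 measured p53 targets, in cells without Trp53, 5 rose (35.7%, beside 19.4% of all genes), namely Gadd45a (2.80 ± 0.49), Perp, Aen, Sesn1 and Zmat3. The apoptosis gene Pmaip1 was the single fall (7.14%, beside 18% of all genes), by 2.60 ± 0.67, and the other 8 did not pass. With centred arrays 9 rose and 1 fell.

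**Figure D3:**
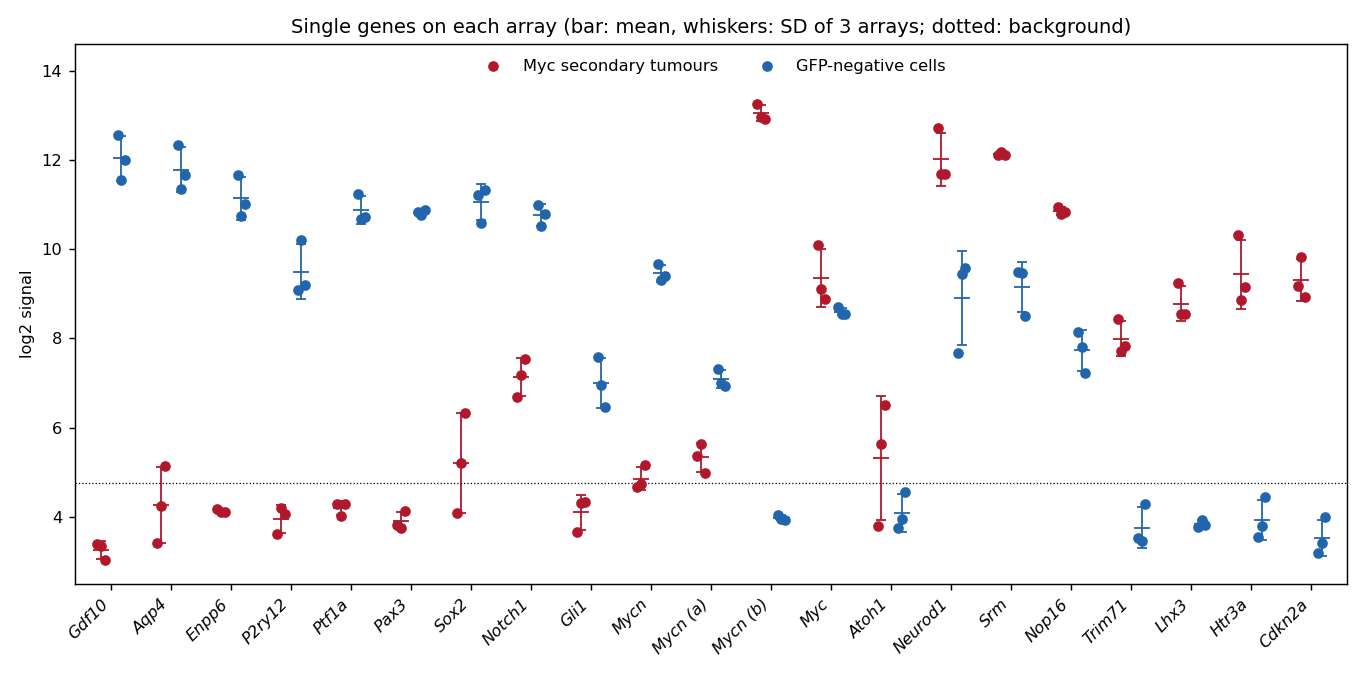
Log2 signal of named genes on each array, Myc secondary tumours (red, left of each pair) and GFP-negative cells (blue, right of each pair); points are arrays, bars are means and whiskers the SD of 3 arrays, and the dotted line is the background of 4.77. Mycn is shown by its 3 probe sets, of which Mycn (b) averages 13.05 in the tumours and 3.98 in the GFP-negative cells, opposite to the other ones; only Myc secondary 1 keeps Atoh1 at the GFP-negative level.

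The largest falls belonged to the glia of the postnatal cerebellum. Of 16 measured markers of astrocytes and Bergmann glia, 15 fell, beside 18% of all genes, with a median difference of -4.21. Gdf10, a growth factor of Bergmann glia at the top of all falls, read 3.39, 3.35 and 3.02 in Myc secondary tumours and between 11.56 and 12.56 in GFP-negative cells (-8.78 ± 0.40, adjusted p = 2.02e-08). Aqp4, the water channel of astrocyte endfeet, read 3.42, 4.24 and 5.13 against 12.35, 11.35 and 11.65 (-7.52 ± 1.05, adjusted p = 0.000101). Both genes were at or near background in the tumours and among the brightest in the sorted cells. Aldh1l1, an astrocyte enzyme of folate metabolism, fell by 6.65 ± 0.39 and Slc1a3, a glutamate transporter, by 3.18. Gfap, the filament of mature astrocytes, averaged 3.77 against 6.02 and did not pass (adjusted p = 0.0847). Summed over the list, linear signals were 1784 to 2312 in Myc secondary tumours and 35933 to 62065 in GFP-negative cells.

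Of 15 oligodendrocyte lineage genes, 12 fell and none rose (median -4.83). Enpp6, a marker of newly formed oligodendrocytes, read 4.18, 4.12 and 4.10 in Myc secondary tumours and 11.67, 10.73 and 11.02 in GFP-negative cells (-7.01 ± 0.73, adjusted p = 1.08e-05). Mbp, the myelin basic protein, fell by 6.19 ± 0.88, and Gpr17 and Olig1, of the progenitor stage, by 6.73 and 6.60. Their summed linear signals were 430.0 to 523 in Myc secondary tumours against 13891 to 26592 in GFP-negative cells. The myelin gene Mbp stayed above background in the tumours (6.42, 5.42 and 6.22), whereas Enpp6, Gpr17 and Olig1 had tumour means below background.

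All 17 measured genes of microglia and macrophages fell, beside 18% of all genes (median -3.27). For all 17, every tumour value lay below every GFP-negative value, as it did for 20.5% of all genes. P2ry12, a purine receptor of resident microglia, read 3.61, 4.21 and 4.06 in Myc secondary tumours and 9.08, 10.21 and 9.20 in GFP-negative cells (-5.54 ± 0.26, adjusted p = 2.55e-08). Csf1r, the receptor on which microglia depend, read 5.18, 6.21 and 5.53 against 9.13, 10.16 and 8.57. C1qb, a complement subunit, averaged 8.03 ± 0.58 against 11.72 ± 0.68. The tumours thus kept signal of C1qb and Csf1r while P2ry12 was at background. Summed signals were 1536 to 3831 in Myc secondary tumours against 17529 to 41841 in GFP-negative cells, where GFP-negative 2 was highest.

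Vessel and stromal genes moved less evenly. Of 17 endothelial and mural markers, 6 fell (35.3%, beside 18% of all genes) and 1 rose (5.88%, beside 19.4%), with a median of -0.58. Cldn5, a tight junction protein of brain endothelium, fell by 3.81 ± 0.60. The receptor Tek fell by 2.86 ± 0.39 and the receptor Kdr fell by 2.19. Acta2, smooth muscle actin, rose by 2.91 ± 0.64 (7.85, 8.57 and 8.40 against 4.39, 6.56 and 5.14). Without GFP-negative 2, the array with the highest summed vessel signal, 4 members were called. Of 13 fibroblast and meningeal genes, 9 fell, led by the proteoglycan Dcn (-4.74 ± 0.68), and Ptgds rose by 1.66, a gene named after its value was seen. Without GFP-negative 2, 5 were called. Summed signals of vessels were 1560 to 1690 in Myc secondary tumours against 2402 to 5051 in GFP-negative cells, and those of fibroblasts 1488 to 2237 against 4084 to 9757.

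Of 5 erythroid genes, 2 fell. Haemoglobin alpha, Hba-a1, read 8.61, 9.73 and 8.66 in Myc secondary tumours and 13.85, 13.96 and 14.12 in GFP-negative cells (-4.98 ± 0.80, adjusted p = 0.000296), where it was among the brightest genes, and Alas2, the erythroid haem synthase, fell by 2.03. Hba-a2, a near copy of Hba-a1, averaged 5.47 against 5.27. Blood, vessels, microglia and glia thus contributed signal to the GFP-negative arrays, and their part in the differences of other genes was not tested.

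GABAergic genes of the cerebellum split: of 13 measured, 5 fell (38.5%, beside 18% of all genes) and 2 rose (15.4%, beside 19.4%). Ptf1a, the factor that specifies cerebellar GABAergic neurons, read 4.28, 4.02 and 4.28 in Myc secondary tumours and 11.24, 10.68 and 10.72 in GFP-negative cells (-6.69 ± 0.23, adjusted p = 2.14e-09). Tfap2b, which acts after Ptf1a in interneurons, fell by 6.89 ± 0.31, Gad1, which makes GABA, by 4.90 ± 0.30, Lhx5 by 3.19 ± 0.24 and the vesicular transporter Slc32a1 by 1.98. Each of these was below background in the tumours. Lhx1, shared with Purkinje cells, read 9.79, 8.59 and 8.67 against 7.64, 8.03 and 7.66 and rose by 1.24 ± 0.30 (adjusted p = 0.00575). Foxp2, named after its value was seen, rose by 1.17, and the other 6 of 13 members did not pass.

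**Figure D4:**
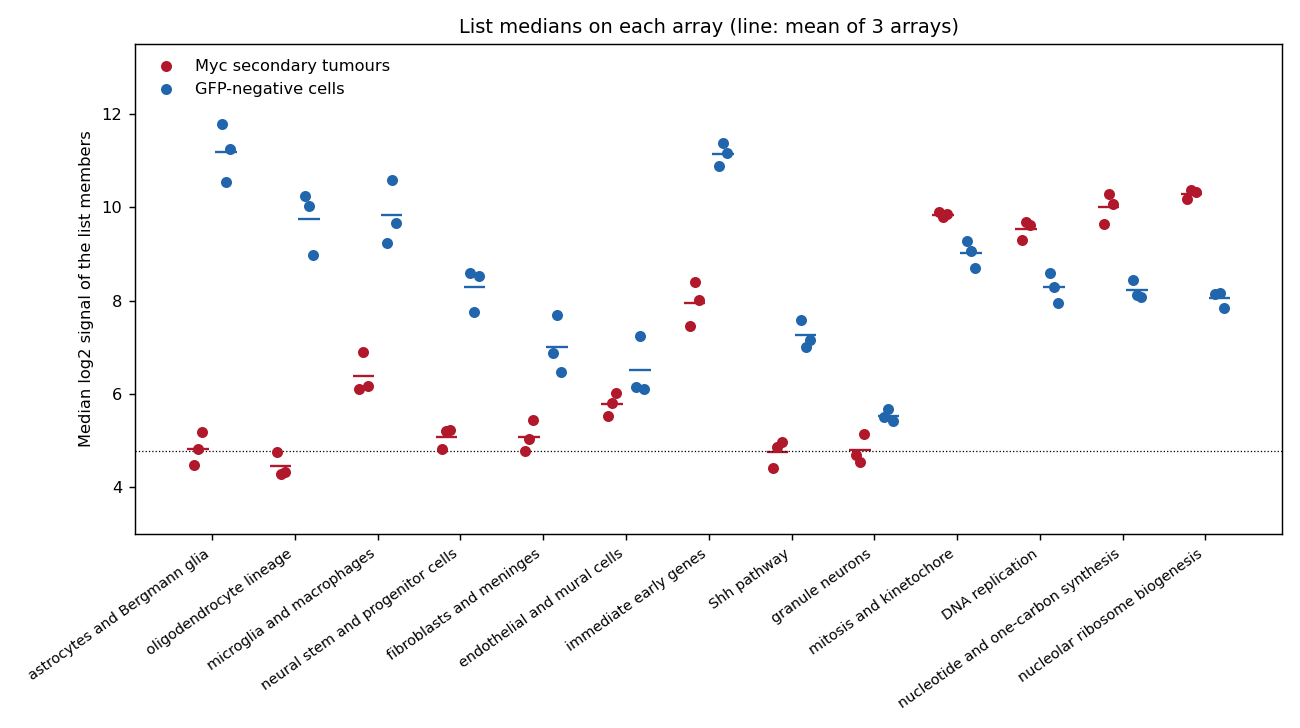
Median log2 signal of the measured members of 13 gene lists on each array, Myc secondary tumours (red, left of each pair) and GFP-negative cells (blue, right of each pair); points are arrays, lines the mean of 3 arrays and the dotted line the background of 4.77. Astrocyte medians lie between 4.48 and 5.18 in the tumours and between 10.54 and 11.79 in GFP-negative cells, and the nucleolar, nucleotide and replication medians lie higher in the tumours on every array.

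The granule lineage lists depended on the scaling. Of 9 measured progenitor genes, 5 fell and none rose (median -1.07), a split that became 4 rises and 4 falls when each array was centred on its median gene. Zic4, a zinc finger factor of these progenitors, read 3.36, 3.88 and 5.97 in Myc secondary tumours and 8.82, 8.24 and 7.90 in GFP-negative cells (-3.92 ± 0.53, adjusted p = 7.6e-05). Meis1 fell by 3.63 ± 0.42 and Pax6 by 2.63 ± 0.60, with their lowest tumour value in Myc secondary 1 (5.45 and 5.53). Zic2 and Zic5 fell by 1.65 and 1.07. Of 16 granule neuron genes, 3 rose (18.8%, beside 19.4% of all genes), 2 fell (12.5%, beside 18%) and 11 did not pass (median 0.16). Centred arrays gave 9 rises and 2 falls, and array weights gave 6 rises and 3 falls. Besides Neurod1, the rises were Nhlh1, of newly differentiating cells (7.37 ± 0.27 against 4.45 ± 0.37, a rise of 2.93 ± 0.26), and Rbfox3, the antigen NeuN, which rose by 1.88 ± 0.16. Etv1 and the netrin receptor Unc5c fell by 3.13 ± 0.28 and 4.71 ± 0.55. Genes of mature granule cells were at background in both groups: Gabra6 averaged 3.58 against 3.43, Cbln3 3.64 against 3.67 and Slc17a7 3.28 against 3.14, named after their values were seen.

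Other neuronal genes were at higher or lower levels by subset. Of 16 genes of the neuronal cytoskeleton and axon growth, 7 rose and 2 fell (median 1.76), against 10 rises and 4 falls with array weights. The heavy neurofilament Nefh read 8.80, 6.76 and 7.57 in Myc secondary tumours and 3.42, 3.30 and 3.65 in GFP-negative cells (4.26 ± 0.37, adjusted p = 2.81e-06). Ina, internexin, rose by 3.06 ± 0.28, neuronal tubulin Tubb3 by 2.64 ± 0.30 and Map1b by 1.80. Dpysl3 and Dclk1, of growth cones and migrating neurons, fell by 2.79 and 1.39. Of 21 genes of vesicle release, 6 rose (28.6%, beside 19.4% of all genes) and 7 fell (33.3%, beside 18%). Complexins went opposite ways: Cplx1 rose by 3.18 ± 0.24 (10.76 ± 0.31 against 7.58 ± 0.26) and Cplx2 fell by 2.63. Synaptophysin Syp rose by 1.87 ± 0.29 and Rab3a by 1.41, and Syn2 and Syt11 fell by 2.19 and 1.81.

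Of 17 glutamate and GABA receptor and channel genes, 7 fell, 1 rose and 9 did not pass (median -0.36). With GFP-negative 3 as the sole GFP-negative array, 5 fell. Gria1, a subunit of the AMPA receptor, read 3.66, 3.23 and 3.62 in Myc secondary tumours and 10.67, 10.18 and 10.19 in GFP-negative cells. Its adjusted p of 3.56e-11 was the smallest of the named genes (-6.84 ± 0.16), with the tumours below background. Gria2 fell by 3.45, Gria3 fell by 3.08 and Gria4 fell by 3.23. Gabrb1 fell by 4.93 and Grm5, near background in both groups, by 0.86. Grik2, named after its value was seen, rose by 0.86.

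Of 15 measured stem and progenitor genes, several of them shared with glia, 9 fell and none rose (median -1.43). Sox2, a factor of neural stem cells and Bergmann glia, read 4.08, 5.21 and 6.33 in Myc secondary tumours and 11.22, 10.59 and 11.34 in GFP-negative cells (-5.84 ± 0.66, adjusted p = 1.94e-05). Sox9 fell by 4.22 ± 0.25, Sox21 by 3.25, and the intermediate filament Vim by 3.02 ± 0.46. Prom1 and Msi1, named after their values were seen, averaged 10.29 against 9.73 and 8.58 against 8.82 and did not pass.

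In the Shh pathway, which drives granule progenitor growth, 7 of 13 fell and 1 rose (median -1.67). Gli1, the transcriptional readout of the pathway, read 3.66, 4.31 and 4.33 in Myc secondary tumours and 7.59, 6.95 and 6.46 in GFP-negative cells (-2.90 ± 0.27, adjusted p = 4.46e-06). The ligand trap Hhip fell by 3.50 ± 0.67, Gli3, mainly a repressor, by 3.51 ± 0.27, the co-receptor Boc by 1.92 and the inhibitor Sufu by 1.85. Ptch1, the receptor and itself a target, read 10.15, 9.65 and 9.55 against 11.05, 10.53 and 10.66, without overlap but not past the test (-0.97 ± 0.89, adjusted p = 0.447). The single rise was Hhatl, below background in both groups and named after its value was seen.

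Of 17 Notch genes, 8 fell and 1 rose. The receptor Notch1 read 6.69, 7.17 and 7.54 in Myc secondary tumours and 10.98, 10.51 and 10.80 in GFP-negative cells (-3.63 ± 0.45, adjusted p = 4.19e-05), and Notch3 fell by 2.96 ± 0.42. Their target Hes1 fell by 3.08 ± 0.46 and their target Hes5 fell by 2.74 ± 0.33, with tumour means of 4.63 and 4.80 near background. Hes6, which opposes Hes1 and was named after its value was seen, rose by 0.87.

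In the Wnt list 11 of 19 fell and 3 rose (median -0.96). Dkk3 and Apcdd1, secreted and membrane modulators, fell by 4.49 ± 0.23 and 4.91 ± 0.40, and the nuclear effector Tcf7l2 by 4.09. Lgr5, a receptor for R-spondins, read 8.30, 8.32 and 8.25 in Myc secondary tumours and 4.88, 4.47 and 4.10 in GFP-negative cells (3.81 ± 0.36, adjusted p = 4.84e-06). Sfrp2 and Lrp6, named after their values were seen, also rose (2.39 and 0.64). In the Bmp list 11 of 18 fell and none rose (median -1.09). Bmp4 read 3.60, 3.60 and 3.27 against 10.58, 9.60 and 8.29 (-6.00 ± 0.83, adjusted p = 9.8e-05), and its target genes Id1 and Id2 fell by 3.32 ± 0.57 and 1.76 ± 0.23.

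Growth factor genes fell in 13 of 23 cases and rose in 2 (median -1.77). The receptor Egfr read 3.47, 3.79 and 4.14 in Myc secondary tumours and 10.91, 10.21 and 10.71 in GFP-negative cells (-6.81 ± 0.44, adjusted p = 3.76e-07). Ptprz1, the receptor for pleiotrophin, fell by 6.55 ± 0.66, Fgfr1 by 3.83 ± 0.25 and the neurotrophin receptor Ntrk3 by 3.23. The exceptions were Fgf15 and the binding protein Igfbp3. Fgf15 read 9.46, 7.86 and 7.87 in Myc secondary tumours and 4.76, 4.24 and 5.04 in GFP-negative cells (3.72 ± 0.35, adjusted p = 4.84e-06), and Igfbp3 averaged 9.01 ± 0.10 against 5.38 ± 0.23.

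Of 14 transcription factor genes of forebrain identity, 4 rose (28.6%, beside 19.4% of all genes) and none fell, and the other 10 were below background in both groups. Dlx1, of forebrain interneurons, read 7.34, 6.75 and 7.19 in Myc secondary tumours and 3.74, 3.79 and 4.11 in GFP-negative cells (3.22 ± 0.15, adjusted p = 2.17e-08). Lhx2 rose by 3.09 ± 0.51, Neurod6 by 2.77 ± 0.77 and Dlx2 by 1.12 ± 0.33. Neurod6 was highest in Myc secondary 1 (9.37, against 6.33 and 6.11 in the other tumours). The fit on only the 6 arrays called 2 members, both higher, and centred arrays gave 11 rises. Of 14 hindbrain genes, 6 fell and none rose, against 3 falls and 4 rises with centred arrays. The 6 falls included Egr2, which is also counted among the immediate early genes below. Irx2 read 3.81, 3.73 and 4.54 against 9.24, 8.37 and 9.0 (-4.84 ± 0.43, adjusted p = 3.23e-06), Irx1 fell by 3.56 ± 0.55, and En2, a cerebellar identity gene, by 0.87 ± 0.19 while keeping a high level (8.40 against 9.28).

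Several of the largest rises were genes at background in GFP-negative cells. After Cdkn2a came Ppp1r14a, an inhibitor of myosin phosphatase, which averaged 9.41 ± 0.31 in Myc secondary tumours against 3.79 ± 0.30 in GFP-negative cells. Htr3a, a subunit of the serotonin-gated channel, read 10.31, 8.85 and 9.15 against 3.55, 3.80 and 4.44 (5.51 ± 0.60, adjusted p = 1.39e-05). The LIM homeobox genes Lhx3 and Lhx8, known from motor neurons and forebrain cholinergic neurons, rose by 4.93 ± 0.45 and 4.32 ± 0.19, and the homeobox gene Uncx by 4.28. Tex14, Ydjc, Lamp5, Sema3g and Tff3 rose by 4.78, 4.70, 4.69, 4.29 and 4.26. Some of these rises were not particular to the Myc tumours. Uncx averaged 10.47 in GFP-positive cells and 9.81 in Shh tumours against 7.69 in Myc secondary tumours, and Tex14 9.18 and 8.69 against 8.83. Cdkn2a averaged 7.96 in Shh tumours and 3.90 in GFP-positive cells. Others, such as Ydjc and Lhx8, were below background in both GFP-positive cells and Shh tumours. Only Cisd3, a mitochondrial iron-sulphur protein, Mgp, a matrix inhibitor of calcification, and the amino acid transporter Slc6a15 were above background in GFP-negative cells among these 15, at 6.41, 5.13 and 6.26.

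Besides the glial and GABAergic genes, the 15 largest falls included Tril, Ednrb, Pax3, Grm3 and Ptx3, which fell by 7.13, 6.99, 6.92, 6.86 and 6.84. Ednrb is the endothelin receptor of astroglia and Pax3 an early neural factor. All of the 15 except Ednrb (5.18) had a tumour mean below background. Pou3f3, a POU factor of neural progenitors, read 3.42, 3.48 and 3.72 in Myc secondary tumours and 10.48, 10.26 and 10.26 in GFP-negative cells (-6.79 ± 0.36, adjusted p = 6.05e-08).

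Of 14 oncofetal and pluripotency regulators, 2 rose (14.3%, beside 19.4% of all genes) and 3 fell (21.4%, beside 18%). Centred arrays gave 7 rises and 2 falls. Trim71, a regulator of let-7 timing genes, read 8.44, 7.72 and 7.83 in Myc secondary tumours and 3.52, 3.46 and 4.29 in GFP-negative cells (4.24 ± 0.47, adjusted p = 1.68e-05), and the DNA methyltransferase Dnmt3b rose by 1.74 ± 0.23. Dnmt3a, Klf4 and Hmga2 fell by 1.49, 4.31 and 1.25. Nanog and Pou5f1, named after their values were seen, averaged 3.10 against 3.40 and 3.79 against 3.81, below background in both groups. Of 17 markers of human medulloblastoma groups, 6 fell and 1 rose, against 6 falls and 5 rises with centred arrays. Npr3, a marker of group 3, rose by 3.60 ± 0.61 (5.29, 8.23 and 8.22 against 3.54, 3.78 and 3.63). Eya1, of the Shh group, fell by 4.34 ± 0.32, and Gad1, Pdlim3, Sfrp1, Tnc and Wif1 fell as well. The other 10 members did not pass the test, and 12 of the 17 had a tumour mean below background. Gabra5, Crx and Nrl, named after their values were seen, were among those that did not pass. Of 13 Polycomb and chromatin genes, 5 rose (38.5%, beside 19.4% of all genes) and 2 fell (15.4%, beside 18%). The rises included Suz12 (0.97 ± 0.16), Bmi1 (0.93) and Cbx2 (1.02), and the falls were Rnf2 (-0.80) and Smarca2 (-0.94). Centred arrays gave 7 rises and no fall, and GFP-negative 3 as the sole GFP-negative array gave 4 rises and no fall.

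Genes of glycolysis and the hypoxia response rose in 12 of 23 cases and fell in none (median 1.0). Pdk1, which holds pyruvate from mitochondrial oxidation, read 10.63, 9.86 and 9.65 in Myc secondary tumours and 7.59, 7.71 and 6.53 in GFP-negative cells (2.77 ± 0.38, adjusted p = 9.82e-05). Lactate dehydrogenase Ldha rose by 1.45 ± 0.21, pyruvate kinase Pkm by 1.60 ± 0.20 and Pfkp by 2.26. The hypoxia genes moved less evenly. Car12 rose by 3.98 ± 0.41 from a background level in GFP-negative cells, whereas Vegfa and Egln3, named after their values were seen, averaged 7.62 against 7.82 and 7.03 against 7.87 and did not pass. Among 15 genes of cholesterol synthesis, 1 rose (Fdps, 0.81) and none fell (median -0.17). This split turned with the setting: it was 5 rises and no fall with centred arrays, 1 rise and 5 falls after cyclic loess scaling, and 3 rises and no fall with GFP-negative 3 as the sole GFP-negative array.

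Immediate early genes, which respond to stimulation and also to tissue dissociation, fell in 15 of 16 cases (median -2.38). Atf3, a stress factor, read 5.84, 7.91 and 7.30 in Myc secondary tumours and 10.89, 11.97 and 11.42 in GFP-negative cells (-4.41 ± 0.75, adjusted p = 0.000459). Egr2 fell by 4.28, Nr4a1 fell by 2.68, Jun fell by 2.69 and Dusp1 fell by 2.20. With GFP-negative 3 as the sole GFP-negative array, 9 of them were called. The single rise was Egr3, below background in both groups and named after its value was seen. The labels name a Percoll step for tumour cells and sorting for the others, so handling and group cannot be told apart for these genes.

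Of 14 interferon and antigen presentation genes, 6 fell, none rose and 8 did not pass. H2-K1 read 8.53, 8.83 and 8.31 in Myc secondary tumours and 9.55, 11.03 and 10.06 in GFP-negative cells (-1.66 ± 0.40, adjusted p = 0.00485), and Tapbp, which loads peptides, fell by 2.03 ± 0.24. Cxcl10, a chemokine, fell by 4.21 ± 0.57 and Irf1, an interferon-induced transcription factor, fell by 1.95. Psmb8, of the immunoproteasome, fell by 1.40 and lost its call in 6 of 15 alternatives. H2-D1 fell by 1.72 on its brightest probe set, whereas 2 dimmer ones of its 5 were higher by 2.64 and 2.29. Class I genes are closely similar paralogs and these probe sets disagree, so the direction of H2-D1 is uncertain. Microglia, which carry these molecules, fell as a list in the same arrays, and their part was not tested.

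Of 26 axon guidance and adhesion genes, 16 fell, none rose and 10 did not pass (median -1.65). Chl1, a relative of L1cam, read 3.62, 3.77 and 3.52 in Myc secondary tumours and 9.97, 9.58 and 9.76 in GFP-negative cells (-6.14 ± 0.25, adjusted p = 1.09e-08), and the netrin receptor Dcc fell by 4.55 ± 0.34 while staying above background at 6.65. Of 18 matrix genes, 10 fell, 1, Mgp, rose and 7 did not pass. Tenascins Tnc and Tnr fell by 6.61 ± 0.46 and 6.5, and the lecticans Vcan and Bcan by 6.27 ± 0.54 and 4.77. With GFP-negative 3 as the sole GFP-negative array, 5 matrix genes fell and 1 rose.

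By chromosome, genes of 14 and 16 differed from the rest. On chromosome 14, 36 of 596 genes rose (6.04%) and 187 fell (31.4%), and on chromosome 16, 45 of 561 rose (8.02%) and 132 fell (23.5%). On the other autosomes and the X, 13.9% to 24.6% of genes rose. Expressed genes were those with a mean above background in the Myc secondary tumours, in the GFP-negative cells or in both. Among the 361 expressed genes of chromosome 14, the median distance from the GFP-negative mean was -0.76, -0.78 and -0.69 in the Myc secondary arrays. It was 0.21, 0.05 and -0.29 in the GFP-negative arrays. In Myc primary arrays it was -0.83, 0.01 and -0.42. For the 346 expressed genes of chromosome 16 it was -0.11, -0.60 and -0.53 in Myc secondary arrays, 0.20, 0.06 and -0.29 in GFP-negative arrays and -0.73, -0.64 and -0.13 in Myc primary arrays. For chromosome 2, shown as a contrast, the medians were 0.28, 0.23 and 0.27 in Myc secondary arrays and 0.20, 0.07 and -0.27 in GFP-negative arrays. All 3 secondary tumours were thus low on chromosome 14 and 2 of 3 on chromosome 16. DNA copy number was not measured here. Gdf10, Ednrb and Bmp4 lie on chromosome 14, and so does Sema3g, which rose.

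**Figure D5:**
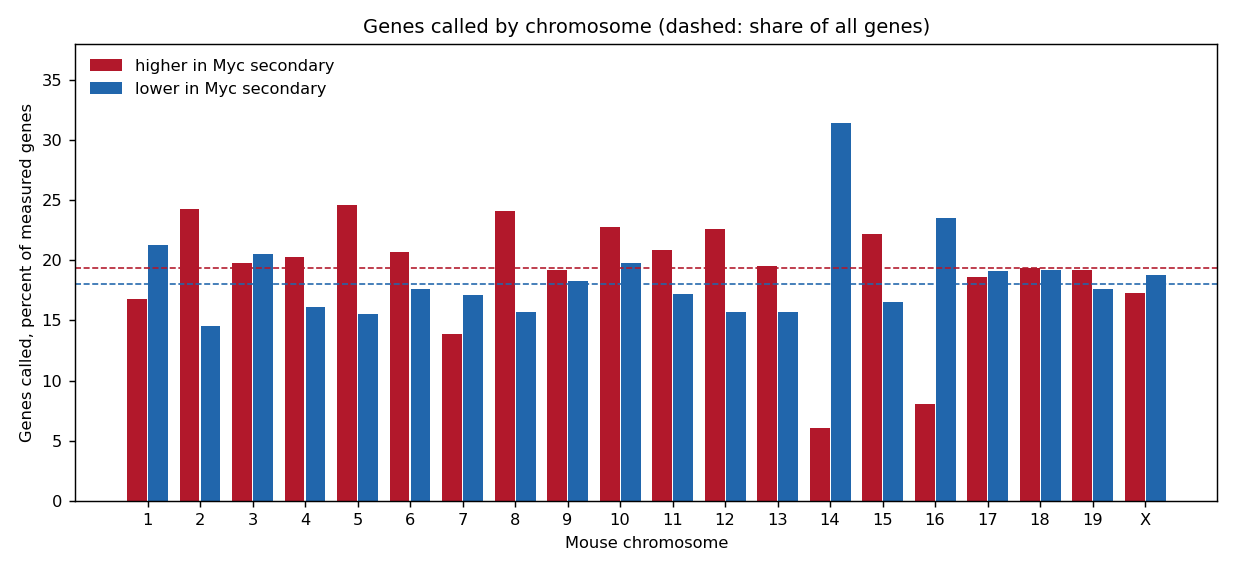
Share of measured genes on each autosome and the X that rose (red, left bar) or fell (blue, right bar) in Myc secondary tumours against GFP-negative cells, in percent of the genes measured there. Dashed lines mark the shares over all genes (19.4% and 18%); chromosomes 14 and 16 have the smallest shares of rises, 6.04% and 8.02%, and the largest shares of falls.

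None of the 4 sex-linked genes passed the test in the fit over 5 groups. Xist, the RNA of the inactive X, read 5.83, 7.99 and 7.42 in Myc secondary tumours and 11.13, 11.73 and 11.15 in GFP-negative cells, without overlap (-4.25 ± 1.76, adjusted p = 0.0778). In the fit on only the 6 arrays it passed the test (adjusted p = 0.00278). Eif2s3y of the Y chromosome was high in both groups, at 7.84, 9.17 and 9.04 in Myc secondary tumours and 9.27, 8.72 and 9.15 in GFP-negative cells. Both Xist and Eif2s3y were therefore present on every array of either group, and the sex of the animals is not given in the labels.

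Myc primary tumours, the source of the secondary ones, were set against the same GFP-negative arrays, so the results of both comparisons share those arrays and only their values are given side by side. In Myc primary tumours 5772 genes changed against GFP-negative cells (33.8%), and the nucleolar list had a median difference of 1.99 there and 2.09 in the secondary tumours. The difference between secondary and primary tumours was tested directly, and 123 genes changed (0.719%), 44 higher and 79 lower. Of the 668 measured list members, 13 changed (1.95%), 2 higher and 11 lower, and none of them was a nucleolar, nucleotide, replication or mitotic gene.

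Dlx1 was the most distinct of them. It read 7.34, 6.75 and 7.19 in Myc secondary tumours and 3.90, 3.91 and 4.04 in Myc primary tumours, where it could not be told from background (3.15, adjusted p = 5.71e-07). Suz12 was the other member that was higher (0.99, adjusted p = 0.0187). Among the lower ones, Cdk6 read 5.80, 4.05 and 5.12 in Myc secondary tumours and 8.0, 7.90 and 8.77 in Myc primary tumours (-3.24, adjusted p = 0.00336). Irx2, Zic4, Sox9, Fgfr1, Cxcl10, Cdh4 and Rab3a differed by -2.75, -2.67, -1.67, -1.57, -3.08, -2.47 and -1.23. The remaining members, Sema6a, Ifit3 and Rims1, were named after their values were seen and differed by -2.05, -2.08 and -2.18. Of the genes with the largest changes against GFP-negative cells, Htr3a and Lhx8 were also higher than in Myc primary tumours (2.93, adjusted p = 0.0481, and 1.04, adjusted p = 0.0354). Pou3f3 was lower, at 3.42, 3.48 and 3.72 in Myc secondary tumours and 6.83, 7.10 and 8.70 in Myc primary tumours (-4.00, adjusted p = 0.00058). In a fit on only the 6 arrays of these groups, Dlx1 was the 1 gene called (adjusted p = 0.0349), so the other calls against Myc primary tumours given here rest on the spread estimated over all 5 groups. The number of genes also rested on few arrays, with 25 called without Myc secondary 2, 47 without Myc primary 3, 60 without Myc secondary 3 and 271 without Myc primary 1.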

How the data were processed

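Expression was measured on one-colour Affymetrix HT_MG-430_PM arrays. The deposited values are the authors' log2 signals, made with Partek 6.5 and robust multi-array averaging (RMA) per the submitters' processing notes. RMA settings are not given in the sources used here. Values were used as deposited, without further scaling.

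Of 45141 probe sets, 104 controls, 15588 without a listed gene and 551 with several genes were left out. The 28898 others stood for 17097 genes, each represented by its probe set with the highest mean over 15 arrays (7180 genes had more than 1). Symbols of 28689 probe sets were updated through GRCm38.p6 (RefSeq), and 209 kept the listed symbol.

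limma 3.58.1 under R 4.3.3 fitted all 5 groups of 3 arrays together, with two-sided tests, with Benjamini-Hochberg adjustment over all genes and a threshold of 0.05. Errors of differences are standard errors of that fit, and those of means are SDs. The number of arrays limits the precision. The procedure was tested on simulated data. Tables were made with Python 3.11.15.

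The 41 lists (668 of 757 genes measured), the comparison and the alternatives were chosen with earlier results of these data known. Named genes were the 15 largest rises and the 15 largest falls, the genes of the model, up to 6 members per list with the smallest adjusted p, all members of the Myc, kinase inhibitor and sex-linked lists, and up to 6 promoters with the E-box. Others are said to have been named later. Alternatives were other probe set rules, filters, scalings, variance models and subsets of arrays.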

Additional observations from a re-analysis of the deposited data

How the results depend on the processing

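No paired analysis was possible because the labels give no replicate numbers that could pair the arrays. The count of genes changed between Myc secondary tumours and GFP-negative cells, 6389, lay between 5486 and 6966 when single arrays were left out, and between 4545 and 8932 under the other alternatives except centring each array on its median gene, which gave 10346. The 2-fold count, 4049, lay between 3523 and 5367. The count between Myc secondary and Myc primary tumours, 123, was less stable: it was 264 with probe sets averaged, 274 with centred arrays, 581 with array weights, 426 with every probe set tested by itself and 1 in a fit on only these 6 arrays, and it lay between 25 and 271 when single arrays were left out. The cause was not tested.

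The direction of 4 named genes reversed. Cdkn1c lay between -1.68 and 0.91 when single arrays were left out, with the highest value without Myc secondary 1, and gave 0.84 without Myc secondary 1 and GFP-negative 3. Averaging probe sets gave 0.71 for H2-D1 and 0.91 for Mycn, whose probe sets disagree. Hba-a2 gave -0.90 with GFP-negative 3 as the sole GFP-negative array, a setting in which that array is assumed to vary like the other groups. Of 232 named genes that were called, 202 kept the call in all 15 alternatives run on single genes. Among the others, Mxi1 and Cdkn3 lost it in 8, Irx3 in 7, Dlx2 and Mlx in 5 and Neurod6 in 3. The endothelial list had 15 members called with array weights.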
